A study of Homo sapiens with 9 samples.

Results

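Hep3B hepatocellular carcinoma cells were kept for 24 hours with vehicle at 20% O2, with vehicle at 1% O2 or with 32-134D at 1% O2, and the mRNAs of 7 enzymes of the pentose phosphate pathway were followed through the 9 RNA-seq libraries. The members were H6PD, PGLS and PGD of the oxidative branch and RPIA, RPE, TKT and TALDO1 of the non-oxidative branch. They were taken by gene symbol from the 60683 genes listed in the count table, and were chosen with earlier results of these data known. All 7 were found and all 7 passed the low-count filter, with 3682 (RPIA) to 41711 (PGD) reads each over the 9 libraries. The vehicle was DMSO, each group held 3 libraries from 3 biological replicates, and the groups shared the same cell line, medium and exposure time. The compound 32-134D is an inhibitor of the hypoxia-inducible factors (HIFs), the transcription factors that accumulate when O2 is scarce. Hep3B is a single established liver cancer line, and cells given 32-134D at 20% O2 were not analysed here. An effect of the compound apart from hypoxia therefore cannot be told apart from its effect on the hypoxic response.

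The pentose phosphate pathway branches from glycolysis at glucose-6-phosphate. Its oxidative branch turns a hexose phosphate into a pentose phosphate and reduces NADP to NADPH on the way, which feeds lipid synthesis and antioxidant defense. Its non-oxidative branch interconverts pentose phosphates with glycolytic sugars, so that ribose for nucleotides can be made with or without NADPH. The liver uses the pathway heavily for fatty acid and cholesterol synthesis. H6PD runs the first steps inside the endoplasmic reticulum (ER), whereas the other 6 enzymes act in the cytosol.

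In vehicle-treated cells at 1% O2, H6PD mRNA fell 3.19-fold, and PGLS and TKT mRNA rose 1.74-fold and 1.57-fold. The TKT call ended in 4 of 18 other settings, and the other 4 members differed by less than 1.5-fold. With 32-134D at 1% O2, H6PD was 2.61-fold higher than with vehicle at 1% O2 and PGLS was 1.57-fold lower, whereas TKT was not called. The PGLS call with 32-134D held in only 12 of 18 other settings. Compared with vehicle at 20% O2, no member was called in cells given 32-134D, and only 3.52% of all tested genes were. A gene was called when its Benjamini-Hochberg false discovery rate (FDR) was below 0.05 and its fold change exceeded 1.5. The test was edgeR's quasi-likelihood test over 22672 genes. By FDR alone, TKT and RPE were higher with 32-134D than with vehicle at 20% O2 (log2 fold changes 0.43 and 0.33).

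The total counts ran from 6013980 to 40549699 per library, and the common biological coefficient of variation was 10.5%. All 5 hypoxia markers examined (CA9, EGLN3, ANKRD37, NDRG1 and VEGFA) were called higher at 1% O2 and lower with 32-134D. Of all tested genes, 19.5% were called higher and 20.3% lower at 1% O2, and 16.2% and 13.7% with 32-134D against vehicle at 1% O2. All 7 hepatocyte and hepatoma markers examined (ALB, AFP, APOA1, APOB, TTR, SERPINA1 and HNF4A) were detected, and their summed level was 16609 to 17925 CPM (reads of a gene relative to the TMM-adjusted depth of its library) at 20% O2, 11569 to 14410 with vehicle at 1% O2 and 11152 to 16512 with 32-134D. Of these markers APOB and AFP were called lower at 1% O2 (-3.47 and -0.69 on the log2 scale). With 32-134D APOB was called higher (3.12) and TTR lower (-0.92), the TTR call by edgeR but not by DESeq2. Of 7 leukocyte, endothelial and fibroblast markers, 5 (PTPRC, CD3E, VWF, COL3A1 and DCN) had at most 3 counts in any library. The other two, PECAM1 and COL1A1, were called lower at 1% O2 and higher with 32-134D. The summed level of the 7 was 7.15 to 8.32 CPM at 20% O2, 3.18 to 4.51 with vehicle at 1% O2 and 6.06 to 11.7 with 32-134D, and its part in the results was not tested. Replicate 3 of the 32-134D group stood apart from replicates 1 and 2 of its group, where counts gave chi-square values of 36.4 and 32.5 per degree of freedom, against 1.998 between those replicates. Replicate 1 also stood apart in both vehicle groups, at 6.21 and 12.0 against 1.62 at 20% O2 and at 7.90 and 11.8 against 2.48 at 1% O2.

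To show the sequence next to the start of the members that the results turn on, the 250 bases before the RefSeq start site of 4 members are printed 5′ to 3′ in the direction of transcription (GRCh38.p14). HIFs recognize a core written ACGTG or GCGTG. Capitals mark each core on either strand, so that CACGT and CACGC are the same cores on the opposite strand. H6PD, PGLS and TKT are shown because they were called at 1% O2, and PGD because it held the most cores.
H6PD, chr1:9239597-9239846, plus strand: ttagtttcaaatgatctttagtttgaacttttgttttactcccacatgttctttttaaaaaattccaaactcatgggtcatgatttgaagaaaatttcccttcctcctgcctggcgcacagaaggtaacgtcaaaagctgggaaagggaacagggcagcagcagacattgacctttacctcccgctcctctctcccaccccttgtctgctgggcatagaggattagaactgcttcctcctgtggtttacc
PGLS, chr19:17511399-17511648, plus strand: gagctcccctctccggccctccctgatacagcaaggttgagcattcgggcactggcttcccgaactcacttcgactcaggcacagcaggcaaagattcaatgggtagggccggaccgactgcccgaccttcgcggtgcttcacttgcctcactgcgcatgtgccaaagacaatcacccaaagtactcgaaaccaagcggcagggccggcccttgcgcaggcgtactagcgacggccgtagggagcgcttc
TKT, chr3:53256023-53256272, minus strand: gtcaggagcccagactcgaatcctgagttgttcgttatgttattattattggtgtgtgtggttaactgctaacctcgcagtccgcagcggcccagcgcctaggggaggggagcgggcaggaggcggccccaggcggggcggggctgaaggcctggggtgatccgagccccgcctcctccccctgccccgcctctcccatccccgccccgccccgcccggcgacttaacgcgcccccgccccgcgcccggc
PGD, chr1:10398814-10399063, plus strand: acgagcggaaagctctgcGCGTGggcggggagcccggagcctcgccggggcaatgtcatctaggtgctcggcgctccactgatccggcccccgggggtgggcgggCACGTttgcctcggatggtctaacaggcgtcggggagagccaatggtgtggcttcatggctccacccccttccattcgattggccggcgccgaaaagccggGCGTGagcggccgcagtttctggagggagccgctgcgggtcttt

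The PGD window held 3 cores, which began 232, 145 and 44 bases before the start. Among RefSeq promoters of 18311 tested genes, 10.4% held at least 3 cores in a window of the same length and 52.8% held at least 1. RPIA held 1 core, 57 bases before its start, and the windows of H6PD, PGLS, TKT, RPE and TALDO1 held none of these letters. The windows of H6PD and PGD follow the RefSeq starts, which lie 5072 and 472 bases downstream of the first GENCODE start of each gene, so upstream starts have other promoters. A match in these letters is a description of the sequence.

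H6PD encodes hexose-6-phosphate dehydrogenase, which oxidizes glucose-6-phosphate and opens the resulting lactone in the ER lumen, where its NADPH supports the reactivation of cortisone. The gene (ENSG00000049239) occupies chr1:9234775-9271337 on the plus strand in GENCODE version 29, on GRCh38. Its level was 83.7, 113 and 102 CPM in the libraries of vehicle at 20% O2. It was 33.0, 28.7 and 31.6 CPM with vehicle at 1% O2. It was 80.4, 82.3 and 81.1 CPM with 32-134D at 1% O2. The highest library of vehicle at 1% O2 lay below every other library, and all 3 libraries with 32-134D lay below the lowest library at 20% O2. In a bulk library, fewer cells with the mRNA and less mRNA per cell cannot be told apart.

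H6PD was the only member called lower at 1% O2 (log2 fold change -1.67, SE 0.10, FDR 3.71e-09). Its mean level was 99.8 ± 14.9 CPM (SD, n = 3) at 20% O2 and 31.1 ± 2.19 CPM (n = 3) at 1% O2. With 32-134D it reached 81.3 ± 0.986 CPM (n = 3), a log2 fold change of 1.38 (SE 0.10, FDR 6.11e-08) from vehicle at 1% O2. The difference of -0.29 (SE 0.10, FDR 0.0738) from vehicle at 20% O2 did not pass the test, although the libraries did not overlap. Without replicate 1 at 20% O2, the lowest library of its group, that difference was -0.40 with an FDR of 0.0113, and it remained under the 1.5-fold threshold. The FDR ran from 0.0113 to 0.272 when single libraries were left out. It was below 0.05 in 5 of 18 other settings, among them upper-quartile factors (0.0281) and thinned counts (0.0274), always under the 1.5-fold threshold. The calls at 1% O2 and with 32-134D held in each of 18 other settings, with log2 fold changes from -1.89 to -1.58 and from 1.33 to 1.57.

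**Figure D1:**
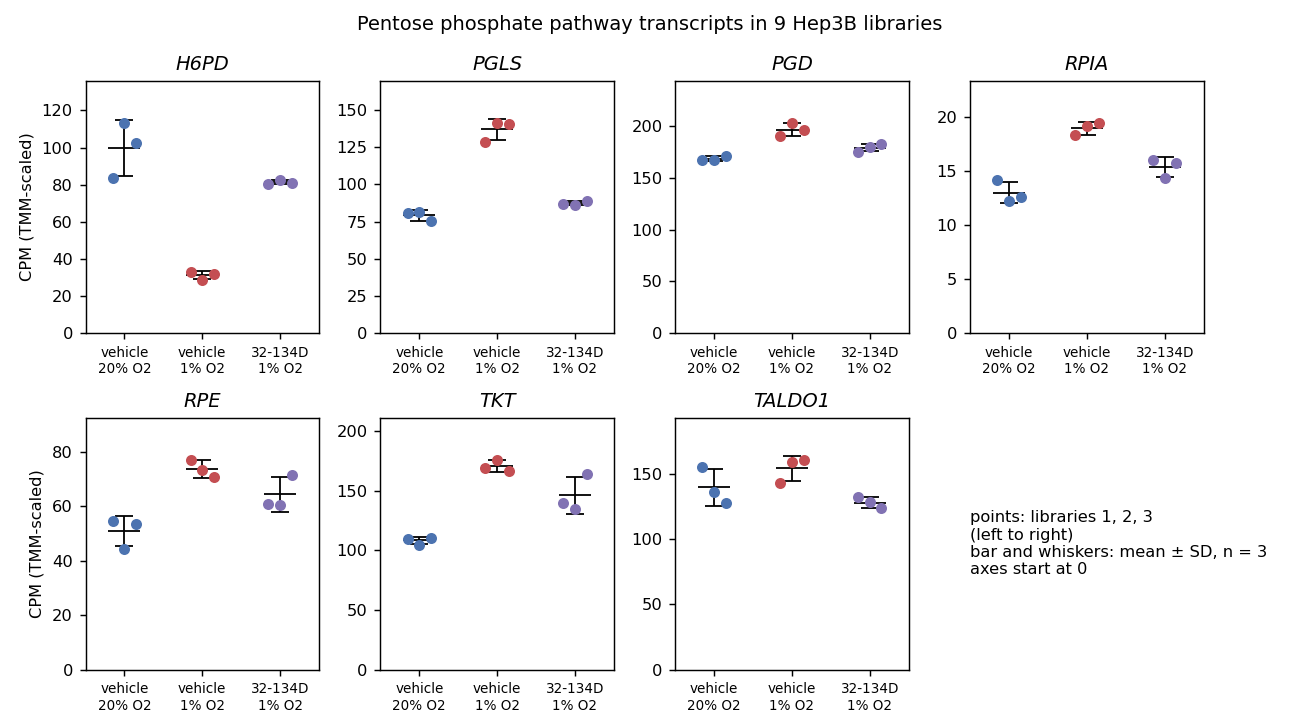
Normalized level (CPM, TMM-scaled) of each member in the 9 libraries, with the group mean and SD (n = 3) as bars and every axis starting at 0. H6PD sits near 31.1 CPM in vehicle at 1% O2 against 99.8 and 81.3 CPM in the other groups, and PGLS shows the opposite order.

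PGLS encodes phosphogluconolactonase, the cytosolic enzyme that opens the lactone made in the first oxidative step. The gene (ENSG00000130313) lies at chr19:17511629-17521288 on the plus strand. Its level was 80.7, 81.7 and 75.1 CPM with vehicle at 20% O2. It was 129, 141 and 141 CPM with vehicle at 1% O2. It was 87.0, 86.5 and 89.0 CPM with 32-134D. The 3 libraries of vehicle at 1% O2 stood above all others, and the libraries with 32-134D stood just above those at 20% O2, without overlap.

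PGLS rose at 1% O2 (log2 fold change 0.79, SE 0.07, FDR 2.02e-07) and was lower with 32-134D than with vehicle at 1% O2 (-0.65, SE 0.07, FDR 2.49e-06). The difference of 0.15 (SE 0.07, FDR 0.211) between 32-134D and vehicle at 20% O2 did not pass the test. The fall with 32-134D was close to the fold threshold. It was -0.56 without replicate 3 of vehicle at 1% O2 and -0.58 without replicate 1 of 32-134D, both under 1.5-fold, with FDRs of 0.000111 and 5.69e-05. The exons of PGLS share 261 bases with those of a noncoding gene on the opposite strand, AC010618.3, which had 296 counts against 23633 for PGLS. The strand setting of the counting is not given in the sources used here, so reads from those bases are uncertain.

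PGD encodes phosphogluconate dehydrogenase, which makes the second NADPH of the branch and releases ribulose-5-phosphate. The gene (ENSG00000142657) lies at chr1:10398592-10420144 on the plus strand. Its level was 168, 167 and 171 CPM at 20% O2, 190.1, 203 and 196 CPM with vehicle at 1% O2 and 175, 180.3 and 182 CPM with 32-134D. The 3 groups did not overlap, but the steps between them were small. The log2 fold change was 0.22 (SE 0.06, FDR 0.00854) at 1% O2, -0.13 (SE 0.06, FDR 0.0990) with 32-134D against vehicle at 1% O2 and 0.09 (SE 0.06, FDR 0.439) against vehicle at 20% O2. No call was made for PGD, and the FDR at 1% O2 rose above 0.05 in 5 of 18 other settings, to 0.959 with total library size.

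H6PD and PGD lie on the same arm of chromosome 1, separated by 1.13 Mb. Of the 18 tested genes between them, 3 were called higher and 2 lower at 1% O2, against 19.5% and 20.3% of all tested genes. PGLS catalyzes in the cytosol a step that H6PD also carries out in the ER, and the mRNAs of both could be set against each other within a library, where the scaling cancels. H6PD took 50.9%, 58.1% and 57.7% of the reads counted on H6PD and PGLS together at 20% O2. It took 20.4%, 16.9% and 18.3% with vehicle at 1% O2 and 48.0%, 48.8% and 47.7% with 32-134D. The means were 55.6% ± 4.04, 18.5% ± 1.77 and 48.2% ± 0.553 (SD, n = 3), and the groups did not overlap. This ratio was chosen after the values of both genes had been seen.

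The PGLS to PGD ratio, set between consecutive cytosolic steps, was 0.469 ± 0.0269 reads per read at 20% O2, 0.697 ± 0.0197 with vehicle at 1% O2 and 0.488 ± 0.00860 with 32-134D (SD, n = 3). The highest ratio at 20% O2 was 0.488 and the lowest with 32-134D was 0.480, so those groups overlapped, and both lay below the lowest ratio of vehicle at 1% O2, 0.678.

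**Figure D2:**
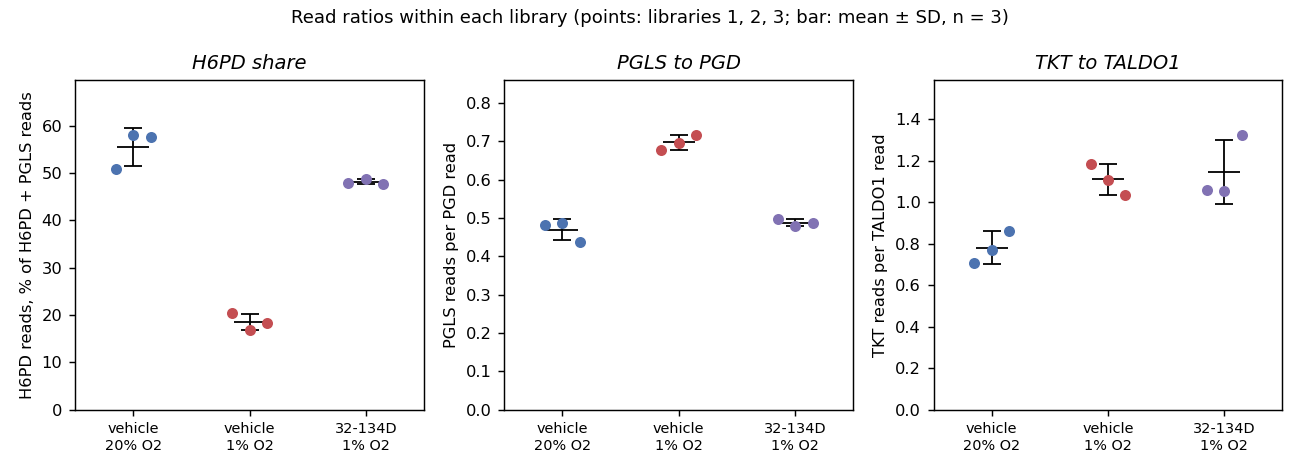
Ratios of reads within each library, which do not depend on scaling, for the 9 libraries, with the mean and SD (n = 3) of each group as bars. The H6PD share (left, %) and the PGLS to PGD ratio (middle) lie close to the values at 20% O2 with 32-134D, at 48.2% and 0.488, whereas the TKT to TALDO1 ratio (right) stays at 1.15.

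The non-oxidative branch begins with the isomerase RPIA, which makes ribose-5-phosphate, and the epimerase RPE, which makes xylulose-5-phosphate. RPIA (ENSG00000153574, chr2:88691644-88750935, plus strand) gave 14.1, 12.2 and 12.6 CPM at 20% O2, 18.3, 19.1 and 19.4 CPM with vehicle at 1% O2 and 16.0, 14.3 and 15.7 CPM with 32-134D. The groups did not overlap, with 32-134D between the others. The log2 fold change was 0.54 (SE 0.10, FDR 0.000387) at 1% O2 and -0.30 (SE 0.10, FDR 0.0182) with 32-134D against vehicle at 1% O2. The latter had an FDR of 0.0585 with DESeq2 and of 0.00808 to 0.156 when single libraries were left out. Against vehicle at 20% O2 the value was 0.24 (SE 0.10, FDR 0.173). RPIA had the fewest reads of the 7, down to 78 in replicate 2 of vehicle at 20% O2.

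RPE (ENSG00000197713, chr2:210002565-210022259, plus strand) gave 54.6, 44.4 and 53.4 CPM at 20% O2, 77.0, 73.3 and 70.6 CPM with vehicle at 1% O2 and 61.0, 60.4 and 71.5 CPM with 32-134D. Replicate 3 of 32-134D reached into the range of vehicle at 1% O2. The log2 fold change was 0.52 (SE 0.09, FDR 0.000213) at 1% O2 and -0.20 (SE 0.09, FDR 0.0876) with 32-134D against vehicle at 1% O2. Without that library the latter was -0.28, with an FDR of 0.00432, and without replicate 1 of 32-134D it was -0.10, with an FDR of 0.468. RPE shares 837 exon bases with KANSL1L on the opposite strand, which had 3865 counts against 14808 for RPE. Its near copies RPEL1 and RPEP4 had 38 and 22 counts in all.

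TKT encodes transketolase, the thiamine-dependent enzyme that moves carbon pairs between sugars. The gene (ENSG00000163931) lies at chr3:53224707-53256052 on the minus strand. Its level was 109.9, 105 and 110.1 CPM at 20% O2, 169, 176 and 166 CPM with vehicle at 1% O2 and 139, 135 and 164 CPM with 32-134D. The libraries with 32-134D lay between the other groups without overlap, and replicate 3 lay just under the lowest library of vehicle at 1% O2. TKT rose at 1% O2 (log2 fold change 0.65, SE 0.08, FDR 5.23e-06). It fell under 1.5-fold with upper-quartile factors (0.46), total library size (0.44), a minimum of 10 counts per library (0.54) and thinned counts (0.56). With 32-134D the log2 fold change was -0.22 (SE 0.08, FDR 0.0274) against vehicle at 1% O2, and -0.31 with an FDR of 0.000323 without replicate 3, under the fold threshold both ways. The FDR ran from 0.000323 to 0.257 when single libraries were left out, the latter without replicate 1 of 32-134D (-0.13). Against vehicle at 20% O2 it was 0.43 (SE 0.08, FDR 0.00295). The transketolase-like genes TKTL1 and TKTL2 had 0 counts in all 9 libraries.

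TALDO1 encodes transaldolase, which shares with TKT the return of pentose carbon to glycolysis. The gene (ENSG00000177156) lies at chr11:747329-765024 on the plus strand. Its level was 155, 136 and 127 CPM at 20% O2, 143, 159 and 161 CPM with vehicle at 1% O2 and 132, 128 and 123 CPM with 32-134D. The libraries at 20% O2 reached into the ranges of both other groups. The log2 fold change was 0.14 (SE 0.08, FDR 0.157) at 1% O2, and its sign turned under other scalings, to -0.05 with upper-quartile factors and -0.07 with total library size. With 32-134D it was -0.27 (SE 0.08, FDR 0.0134) against vehicle at 1% O2, and -0.12 (SE 0.08, FDR 0.388) against vehicle at 20% O2. The difference from vehicle at 1% O2 was -0.17 with an FDR of 0.171 without replicate 3 of that group, and its FDR was 0.0550 with DESeq2.

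TKT and TALDO1 act in turn on the same sugars, and their reads were set against each other within a library. There were 0.781 ± 0.0779 TKT reads per TALDO1 read at 20% O2, 1.11 ± 0.0750 with vehicle at 1% O2 and 1.15 ± 0.156 with 32-134D (SD, n = 3). The highest ratio at 20% O2 was 0.864 and the lowest at 1% O2 with either treatment was 1.04, so the groups at different O2 did not overlap. The groups at 1% O2 overlapped each other.

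Across the 7 members, 2 were called higher and 1 lower at 1% O2, where 19.5% and 20.3% of all tested genes were called higher and lower, 39.7% in all. By FDR alone 5 were higher and 1 lower, against 27.9% and 25.6% of all genes, 53.5% in all. The libraries of 6 members did not overlap between the groups, as was so for 60.5% of all genes. The median log2 fold change of the members was 0.52, and that of all genes tested was 0.000997. With DESeq2 the counts were also 2 and 1.

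With 32-134D against vehicle at 1% O2, 1 member was called higher and 1 lower, where 16.2% and 13.7% of all genes were called, 29.9% in all. By FDR alone 1 was higher and 4 lower, against 21.9% and 25.5%, 47.5% in all. The 4 lower by FDR alone were PGLS, RPIA, TKT and TALDO1, and only PGLS was left with DESeq2 and without replicate 3 of vehicle at 1% O2. The libraries of 6 members, all but RPE, did not overlap, against 56.1% of all genes. The median was -0.22 for the members and -0.0116 for all genes. With DESeq2 the called members were also 1 and 1.

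With 32-134D against vehicle at 20% O2, edgeR called 0 of the 7 members in either direction and DESeq2 also called 0, whereas 3% and 0.516% of all genes were called higher and lower by edgeR, 3.52% in all. At an unadjusted p under 0.05, 3 members were higher and 1 was lower, against 14.7% and 9.91% of all genes. By FDR alone 2 were higher, TKT and RPE (0.33, SE 0.09, FDR 0.0392), and 0 were lower, against 7.81% and 2.44% of all genes. The FDR of RPE ran from 0.0288 to 0.154 when single libraries were left out. The libraries of 6 members did not overlap, against 29.8% of all genes. The largest of the 7 differences was that of TKT, 1.35-fold.

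**Figure D3:**
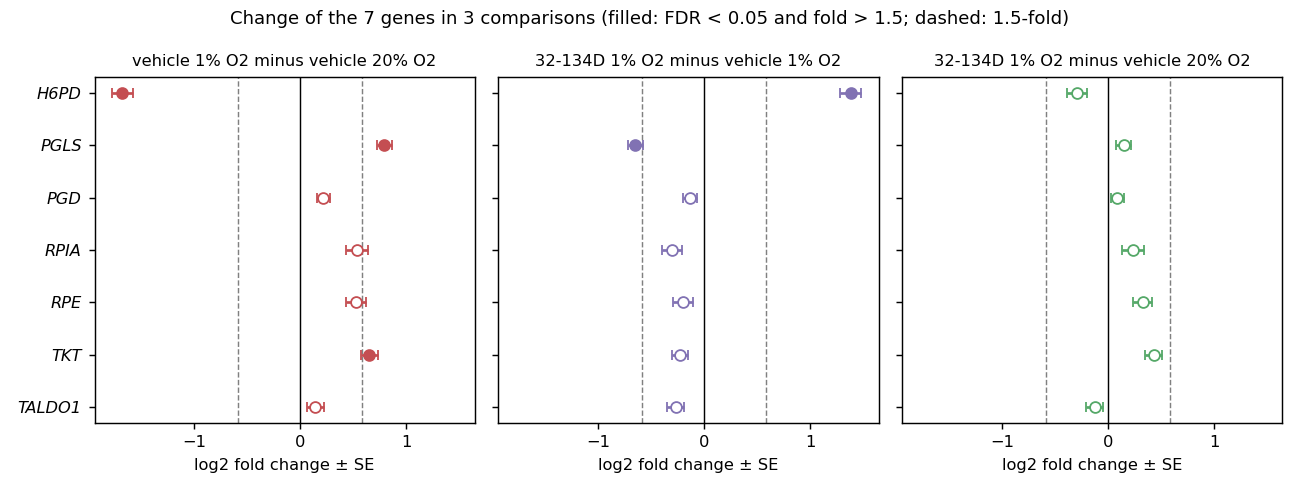
Log2 fold change and SE of each member in the 3 comparisons, from the edgeR fit, with filled points for called genes and dashed lines at 1.5-fold. H6PD is at -1.67 and 1.38 in the first and second panels, and no point in the third panel is called.

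For the members called at 1% O2, the difference with 32-134D was expressed as a percentage of the change at 1% O2 on the log2 scale, as a description without a test, because both comparisons use the same libraries of vehicle at 1% O2. It was 82.6% for H6PD, with 82.0%, 84.1% and 82.8% in the 3 libraries. It was 81.4% for PGLS, with 82.5%, 83.7% and 78.5%. For TKT it was 34.3%, with 44.3%, 51.4% and 8.94%. The libraries were close together for H6PD and PGLS, whereas for TKT replicate 3 stood far below the others.

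Levels of different genes were compared as CPM per kb of summed exon length, a scale that depends on which transcripts are made. At 20% O2 the order was PGD (56.9 ± 0.746), TALDO1 (46.4 ± 4.70), PGLS (27.8 ± 1.24), RPE (14.4 ± 1.57), TKT (11.4 ± 0.318), H6PD (10.7 ± 1.60) and RPIA (7.03 ± 0.538) in mean CPM per kb (SD, n = 3). TKT and H6PD overlapped in that order, and the other neighbours did not. With vehicle at 1% O2, H6PD dropped to last place at 3.34 ± 0.235 CPM per kb, below RPIA at 10.3 ± 0.321, and PGLS at 48.1 ± 2.48 came into the range of TALDO1 at 51.2 ± 3.26. With 32-134D, H6PD stood at 8.72 ± 0.106 and overlapped RPIA at 8.31 ± 0.497, and PGLS at 30.7 ± 0.462 was again apart from TALDO1 at 42.5 ± 1.37.

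The ratio of the highest to the lowest member was 8.09 at 20% O2, 19.9 with vehicle at 1% O2 and 7.28 with 32-134D. The order depended on the length used, since the annotated exons of TKT sum to 9.507 kb and its principal transcript is 3.01 kb. With the length of the principal transcript TKT moved above RPE in every group, and PGLS came first in vehicle at 1% O2 at 133 CPM per kb. H6PD was last in vehicle at 1% O2 with either length. The summed level of the 7 members was 175 ± 4.80 CPM per kb at 20% O2, 218 ± 7.17 with vehicle at 1% O2 and 184 ± 3.73 with 32-134D (SD, n = 3), and the 3 groups did not overlap. The 3 oxidative members, which are not the whole of that branch, took 54.7% ± 2.25, 54.0% ± 0.204 and 54.2% ± 0.717 of that sum (SD, n = 3), values within the spread between libraries. The comparison depended on the length used. Without length the share was 49.9% to 54.9% at 20% O2, 46.4% to 46.9% with vehicle at 1% O2 and 48.5% to 50.8% with 32-134D, so that vehicle at 1% O2 lay below both other groups. With the principal transcript it was 49.4% to 53.1% at 20% O2 and 53.2% to 53.6% with vehicle at 1% O2. With 32-134D it was 51.3% to 52.4%, so that vehicle at 1% O2 lay above both other groups, only just above that at 20% O2. H6PD and PGLS, both counted in this share, moved in opposite directions.

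Log2 fold changes differed between long and short genes. Over genes with a mean of at least 1 CPM, the median log2 fold change at 1% O2 was 0.25 in the shortest of 5 equal groups by exon length and -0.24 in the longest, and with 32-134D it was -0.27 and 0.22. H6PD (9.321 kb) and TKT (9.507 kb) lie in the longest group, and PGLS (2.847 kb) lies in the second shortest. After subtraction of the trend over exon length, the value at 1% O2 was -1.54 for H6PD, 0.81 for TKT and 0.56 for PGLS, the last under the 1.5-fold threshold. It was 0.32 for RPIA, 0.30 for RPE, -0.01 for PGD and -0.09 for TALDO1. With 32-134D it was 1.24 for H6PD, -0.42 for PGLS and -0.38 for TKT. It was -0.06 for RPIA, -0.04 for TALDO1, 0.0052 for RPE and 0.10 for PGD. By its principal transcript of 3.01 kb, TKT is shorter than by its summed exons. At the exon length of TALDO1, 3.005 kb, the trend was 0.23 at 1% O2 and -0.23 with 32-134D. At the summed exon length of TKT it was -0.15 and 0.16, so the TKT values after subtraction depend on the length used. At the shorter length, subtraction would lower the TKT rise at 1% O2 instead of raising it, to under the 1.5-fold threshold.

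**Figure D4:**
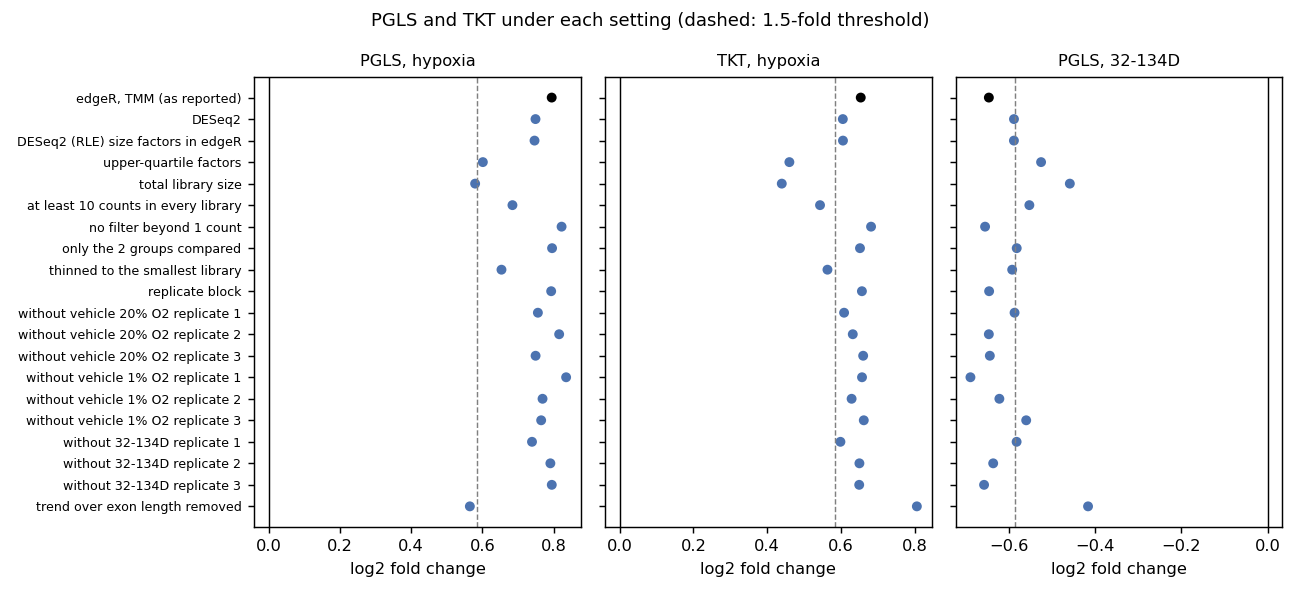
Log2 fold changes of PGLS at 1% O2, of TKT at 1% O2 and of PGLS with 32-134D under each setting, with the reported value in black and a dashed line at 1.5-fold. PGLS at 1% O2 falls below the line with total library size (0.58) and after subtraction of the length trend (0.56), and TKT at 1% O2 falls below it in 4 settings. PGLS with 32-134D is called in 12 of 18 other settings and lies within 1.5-fold after subtraction of the length trend (-0.42).

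Enzymes that act next to the pathway were read from the same fit. Of 10 side enzymes of pentose phosphates, 8 were tested, and 1 was called higher and 3 lower at 1% O2. Of all tested genes, 19.5% were called higher and 20.3% lower at 1% O2, and 16.2% and 13.7% with 32-134D against vehicle at 1% O2. PGM2, a phosphopentomutase, rose by 0.93 on the log2 scale (SE 0.09, FDR 3.81e-07). FGGY, a carbohydrate kinase, fell by 1.23 (SE 0.21, FDR 0.000142), SHPK, the sedoheptulose kinase, fell by 0.95 (SE 0.15, FDR 8.81e-05), and RBKS, ribokinase, fell by 0.72 (SE 0.22, FDR 0.0124). With 32-134D against vehicle at 1% O2, FGGY (0.83, SE 0.20, FDR 0.00297) and SHPK (0.69, SE 0.15, FDR 0.00139) were called higher and PGM2 was called lower (-0.73, SE 0.09, FDR 6.31e-06). RBKS was not called (0.28, SE 0.21, FDR 0.308). The kinase mRNAs were scarce, between 1.39 CPM for RBKS with vehicle at 1% O2 and 10.2 CPM for SHPK at 20% O2. The median of the 8 was -0.33 at 1% O2 and -0.06 with 32-134D.

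Phosphoribosyl pyrophosphate (PRPP) links ribose-5-phosphate to nucleotides. Of its 4 genes, PRPSAP2, a regulatory partner of the synthetase, was called higher at 1% O2 (0.90, SE 0.09, FDR 4.95e-07) and lower with 32-134D (-0.59, SE 0.08, FDR 3.39e-05), the latter by edgeR but not by DESeq2. The catalytic PRPS1 gave 0.39 (SE 0.08, FDR 0.000545) at 1% O2, under the fold threshold, and PRPS2 gave -0.16 (SE 0.10, FDR 0.193). Of 9 genes of purine and pyrimidine synthesis, 3 were called lower at 1% O2, and the other 6 were not called. Among all tested genes, 20.3% were called lower at 1% O2, and 16.2% were called higher with 32-134D against vehicle at 1% O2. PFAS, an enzyme of purine ring assembly, fell by 1.00 (SE 0.12, FDR 4.37e-06). CAD, which starts pyrimidine synthesis, fell by 0.95 (SE 0.10, FDR 1.75e-06), and DHODH, its mitochondrial partner, fell by 0.75 (SE 0.12, FDR 9.36e-05). PFAS and CAD were called higher with 32-134D, at 0.95 (SE 0.12, FDR 9.84e-06) and 0.94 (SE 0.10, FDR 3.04e-06), and DHODH gave 0.54 (SE 0.12, FDR 0.00137), under the fold threshold by edgeR. DESeq2 called 3 genes of the list higher. The median of the 9 was -0.14 at 1% O2 and 0.22 with 32-134D.

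Of 10 other sources of NADPH, 8 were tested, with 2 called higher and 2 lower at 1% O2 by edgeR, and 1 and 2 by DESeq2. By edgeR, 19.5% of all tested genes were called higher and 20.3% lower at 1% O2, and 16.2% and 13.7% with 32-134D. ME1, cytosolic malic enzyme, rose by 0.89 (SE 0.14, FDR 6.92e-05), and IDH2, the mitochondrial isocitrate dehydrogenase, rose by 0.61 (SE 0.10, FDR 0.000127). MTHFD1, a folate enzyme, fell by 0.78 (SE 0.08, FDR 1.25e-06), and NADK2, the mitochondrial NAD kinase, fell by 0.76 (SE 0.18, FDR 0.00202). With 32-134D against vehicle at 1% O2, IDH2 was called lower (-0.83, SE 0.10, FDR 9.07e-06) and MTHFD1 higher (0.68, SE 0.08, FDR 7.26e-06). ME1 gave -0.11 (SE 0.13, FDR 0.526) with 32-134D and remained above vehicle at 20% O2 (0.78, SE 0.14, FDR 0.00250). ALDH1L1 had at most 2 counts and ME3 at most 3 counts in any library. The median of the 8 was -0.09 at 1% O2 and 0.17 with 32-134D.

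In the ER, H6PD draws on glucose-6-phosphate brought in by SLC37A4 and competes with glucose-6-phosphatases. SLC37A4 gave -0.28 (SE 0.14, FDR 0.114) at 1% O2 and -0.16 (SE 0.14, FDR 0.371) with 32-134D. G6PC3, the widely expressed phosphatase, gave -0.33 (SE 0.09, FDR 0.00384) and 0.11 (SE 0.08, FDR 0.320). G6PC, the liver phosphatase, had only 60 counts in all, and was at 0.0442 CPM at 20% O2, 0.565 CPM with vehicle at 1% O2 and 0.0925 CPM with 32-134D on average. It was the gene of this list called higher at 1% O2 and lower with 32-134D. HSD11B1, the cortisone reductase that uses the NADPH of H6PD, had 0 counts in every library. The median of the 3 tested genes was -0.28 at 1% O2 and -0.16 with 32-134D.

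Glycolysis, from which the pathway branches, had larger median differences than the members, whose medians were 0.52 at 1% O2 and -0.22 with 32-134D. Of 16 genes, 14 were called higher and 1 lower at 1% O2, and 1 higher and 13 lower with 32-134D, with medians of 2.03 and -1.75. Among all tested genes, 19.5% and 20.3% were called higher and lower at 1% O2, and 16.2% and 13.7% with 32-134D. ENO2, an enolase, rose by 4.04 (SE 0.09, FDR 9.55e-13), LDHA, lactate dehydrogenase, rose by 3.46 (SE 0.10, FDR 2.84e-12), and ALDOA, aldolase, rose by 3.03 (SE 0.11, FDR 1.95e-11). With 32-134D their log2 fold changes from vehicle at 1% O2 were -2.78, -2.38 and -2.09. HK1 was at 0.0681, 0.661 and 0.0417 CPM in the 3 groups. GPI, the enzyme at the branch point, rose by 1.70 (SE 0.08, FDR 6.14e-10), and is named here for its position in the pathway, after its value was seen. The PGLS and TKT rises of 0.79 and 0.65 were smaller than the values of the 14 glycolytic genes called, while H6PD went the opposite way.

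**Figure D5:**
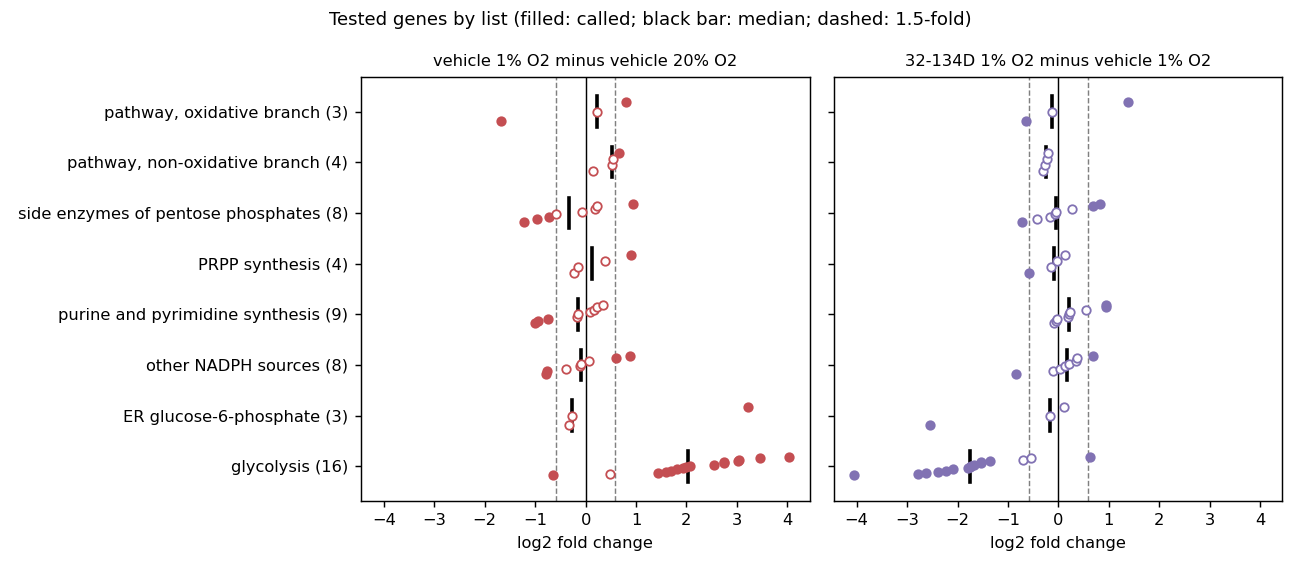
Log2 fold change of each tested gene by list for 1% O2 (left) and 32-134D against vehicle at 1% O2 (right), with filled points for called genes, black bars for medians and dashed lines at 1.5-fold. The glycolysis medians lie at 2.03 and -1.75, and the medians of the pathway branches lie within 1.5-fold of 0.

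The gene whose pattern was most like that of each member was taken by Pearson's r of log2 CPM over the 9 libraries, among 9878 genes with a mean of at least 10 CPM. The libraries form 3 groups, so r mostly follows the group means, and is given as a description. It was EIF4G1, a translation initiation factor, for H6PD (r = 0.998), EEF1A2, an elongation factor, for PGLS (r = 0.999) and REPS1 for TKT (r = 0.996). For the members with smaller differences it was FAM98A for PGD (0.989), KATNBL1 for RPIA (0.991), PSMD11, a proteasome subunit, for RPE (0.989) and MAP2K2, a kinase, for TALDO1 (0.978). The same 7 genes came first with a prior count of 0.5 in place of 2.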

How the data were processed

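RNA-seq was performed on 9 Hep3B cultures, 3 per group. The authors trimmed reads with Bbduk, mapped them with STAR to an Ensembl reference on GRCh38 and counted them with featureCounts, and they deposited raw counts per gene in 1 table. Tool versions and the strand setting are not given in the sources used here. All 9 columns were matched to samples by the names in the labels. The 22672 genes whose 9 counts added up to 10 or more entered edgeR 4.0.16 (R 4.3.3) with TMM scaling, the quasi-likelihood test, a mean per group and Benjamini-Hochberg adjustment over all tested genes. CPM uses TMM-scaled library sizes. DESeq2 1.42.0, other scalings, filters, thresholds, thinning, the omission of single libraries and a block for replicate number were alternatives. Transcript length and position came from GENCODE version 29 and promoters from RefSeq (GRCh38.p14). The procedure was tested on simulated counts. P-values weigh a difference against the spread between cultures within groups, estimated over the 3 groups together and with information shared between genes. Depth, from 6013980 to 40549699 counts, sets the counting error.

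The 7 members and the lists were chosen with earlier results of these data known, and the list of members does not hold every gene of the pathway, the oxidative branch included. From each list the called genes with the largest log2 fold change of either comparison were named, at most 4. Genes with at most 3 counts in every library were named too. SLC37A4, G6PC3, PRPS1, PRPS2 and GPI were named after their values were seen.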

Additional observations from a re-analysis of the deposited data

How the results depend on the processing

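Over 399 comparisons of a member's log2 fold change with another setting, 379 kept the direction and the call, or the lack of one, 13 lost the call and 7 reversed. A call was by FDR and fold together. The values with the length trend removed have no FDR, and no other reversed value had an FDR below 0.05. By FDR alone, 45 of the 378 with an FDR rose above 0.05 and 6 fell below it. The 45 were TKT (13), RPIA (9) and TALDO1 (9) with 32-134D, RPE against 20% O2 (9) and PGD at 1% O2 (5). The 6 were H6PD with 32-134D against 20% O2 (5) and RPE with 32-134D against vehicle at 1% O2 (1). The reversed values were TALDO1 at 1% O2 with upper-quartile factors (-0.0505), total library size (-0.0726) and the length trend removed (-0.0868), PGD at 1% O2 with the length trend removed (-0.0109), PGD with 32-134D at total library size (0.0557) and with the length trend removed (0.0958), and RPE with 32-134D with the length trend removed (0.0052). With upper-quartile factors and total library size the median of all genes was -0.19 and -0.21 at 1% O2, against 0.000997 with TMM. With 32-134D it was 0.11 and 0.17, against -0.0116. Relative to that median PGLS stayed at 0.79 and TKT at 0.65 at 1% O2, and PGLS at -0.63 with 32-134D. A change of scaling moves all genes by nearly the same amount, so these values had to stay and do not restore the lost calls. The share of calls that were higher moved with the scaling, from 49.0% to 35.7% and 34.5% at 1% O2 and from 54.2% to 66.1% and 72.0% with 32-134D. Against 20% O2 it moved from 85.3% to 68.4% with upper-quartile factors.

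The 2 members called higher at 1% O2 became 1 with upper-quartile factors, with a minimum of 10 counts per library and after thinning to the smallest library, 0 with total library size and with a fold change above 2, and 5 with no fold change threshold. The 1 member called lower with 32-134D, PGLS, became 0 with upper-quartile factors, total library size, a minimum of 10 counts per library, a fit of only the groups compared or a fold change above 2, and 4 with no fold change threshold. It ranged from 0 to 1 when single libraries were left out. Against vehicle at 20% O2, 2 members were higher with no fold change threshold. The cause of these changes was not tested. The removed percentage ranged from 78.3% to 87.4% for H6PD, from 73.2% to 86.0% for PGLS and from 22.1% to 48.1% for TKT when single libraries were left out, and was 8.44% for TKT with total library size.

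The ratio of the highest to the lowest member was 14.7, 33.6 and 11.4 (20% O2, vehicle at 1% O2, 32-134D) with the longest transcript and 14.7, 39.2 and 11.4 with the principal transcript. The oxidative share was 51.5%, 53.0% and 52.5% with the longest transcript and 51.6%, 53.4% and 51.7% with the principal transcript, and without length 52.8% at 20% O2, 46.6% in vehicle at 1% O2 and 49.6% with 32-134D. The principal transcript, the length trend and the H6PD share of H6PD and PGLS reads were added after seeing the data. With a replicate block the counts stayed at 2 higher and 1 lower at 1% O2 and at 1 and 1 with 32-134D. Same-numbered libraries did not deviate together (r from -0.246 to 0.107, against -0.209 to 0.306 for other pairs). With so few libraries these values cannot show whether the cultures were paired by number. With 3 libraries a group, an outlying library cannot be tested for, and RPIA had the fewest reads, 78 in its shallowest library.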
